A study of Rattus norvegicus with 20 samples.

Results

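The comparison described here sets the lungs of septic rats that received vagus nerve stimulation against the lungs of rats that had neither sepsis nor stimulation. Its members are 10 of the 20 lung RNA-seq libraries of the study, chosen by their treatment labels alone: 5 libraries labelled CLP + VNS and 5 labelled Sham. Cecal ligation and puncture (CLP) ties off and perforates the cecum, so that gut bacteria leak into the abdomen; here it served as the model of acute respiratory distress syndrome (ARDS). The CLP + VNS rats had this surgery and electrical stimulation of the right cervical vagus nerve (VNS). The Sham rats had the midline incision with the cecum handled but neither tied nor punctured, and no stimulation. The other 10 libraries come from rats with CLP alone and from sham-operated rats given VNS, 5 of each. The 2 groups compared thus differ in both the septic insult and the stimulation, and their difference holds both at once. The sources used here give no strain, age, current setting or time from surgery to lung collection, and nothing beyond the count of 5 rats per group says how the rats were housed or operated together. All values come from whole lung, so fewer cells of a type and less RNA per cell cannot be told apart.

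In sepsis, bacterial products bind pattern receptors such as the CD14 and TLR4 complex, which activate the transcription factor NF-kappaB and with it cytokines, chemokines and the proteins that switch the response off again. Cytokines of the interleukin-6 family act through STAT3 on acute phase genes, neutrophils move from the blood into the lung, and lymphocytes are lost from blood and tissues. In the lung the alveolar wall, made of flat type 1 cells, surfactant-producing type 2 cells and a dense capillary endothelium, becomes leaky, which is the hallmark of ARDS. The vagus nerve is known for an anti-inflammatory reflex in which acetylcholine and noradrenaline, released downstream of its fibres, act on receptors of immune cells.

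The 10 libraries were of nearly equal depth, with 13785057 to 14186116 gene-assigned counts in Sham and 13729646 to 14275406 in CLP + VNS. The first principal component of the 20 libraries held 46.8% of the variance; the Sham libraries lay between -31.7 and -19.8 on it and the CLP + VNS libraries between 15.3 and 32.3. At least 3 libraries stood apart. CLP + VNS replicate 3 lay closest to Sham at 15.3, CLP + VNS replicate 1 lay farthest at 32.3, past the CLP libraries at 24.7 to 30.4, and Sham replicate 1 lay alone on the second component at 39.0. Sham replicate 1 also carried transcripts of fat and heart: the adipocyte gene Plin1 was at 144.5 CPM and the heart myosin gene Myh6 at 51.7 CPM in it, where CPM are counts scaled to the library size after TMM normalization. Results that rest on one of these libraries are given with and without it. Lung identity held in both groups: the surfactant gene Sftpb ranged from 2987 to 6036 CPM in Sham and from 6325 to 8059.9 CPM in CLP + VNS.

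Promoters of 6 of the genes named below are shown, because genes of the factors that bind these motifs, or of their regulators, were among those that changed level: Nfkbia and Bcl3 for NF-kappaB, Stat3 and Socs3 for STAT factors, and Arntl for the E-box. Each run is 300 bases from the RefSeq table of build GRCr8, from 250 bases before to 50 after the annotated start, written 5′ to 3′ along the gene, and the capitals mark the motif match.

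Cxcl2: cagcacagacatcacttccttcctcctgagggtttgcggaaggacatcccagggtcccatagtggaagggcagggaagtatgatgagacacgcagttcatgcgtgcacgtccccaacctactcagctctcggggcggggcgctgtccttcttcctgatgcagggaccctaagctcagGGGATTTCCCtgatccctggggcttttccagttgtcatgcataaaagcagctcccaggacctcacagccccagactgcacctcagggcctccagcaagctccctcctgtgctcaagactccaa
Bcl3: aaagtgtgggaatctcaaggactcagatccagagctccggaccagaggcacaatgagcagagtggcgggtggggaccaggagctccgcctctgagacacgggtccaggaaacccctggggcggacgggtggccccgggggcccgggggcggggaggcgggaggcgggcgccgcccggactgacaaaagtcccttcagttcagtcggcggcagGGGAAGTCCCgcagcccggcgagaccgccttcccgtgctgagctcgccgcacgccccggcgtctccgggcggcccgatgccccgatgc
Adamts4: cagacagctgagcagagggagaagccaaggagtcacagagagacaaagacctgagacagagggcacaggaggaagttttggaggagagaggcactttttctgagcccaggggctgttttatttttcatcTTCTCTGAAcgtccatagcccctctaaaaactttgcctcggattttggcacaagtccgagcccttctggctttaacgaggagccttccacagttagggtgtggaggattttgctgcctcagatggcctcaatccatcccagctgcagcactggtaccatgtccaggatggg
Sema3e: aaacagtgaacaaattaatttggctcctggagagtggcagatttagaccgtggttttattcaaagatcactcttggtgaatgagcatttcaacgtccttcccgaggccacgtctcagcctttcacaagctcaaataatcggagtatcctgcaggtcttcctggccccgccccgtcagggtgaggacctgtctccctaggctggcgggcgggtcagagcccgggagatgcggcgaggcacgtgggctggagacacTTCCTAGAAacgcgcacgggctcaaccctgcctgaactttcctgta
Atf4: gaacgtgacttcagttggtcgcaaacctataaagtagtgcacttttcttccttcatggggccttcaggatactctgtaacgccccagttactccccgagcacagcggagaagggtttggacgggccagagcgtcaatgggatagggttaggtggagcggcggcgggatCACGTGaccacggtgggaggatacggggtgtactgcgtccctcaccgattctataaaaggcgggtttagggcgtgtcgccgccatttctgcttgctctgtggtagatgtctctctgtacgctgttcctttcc
Aqp5: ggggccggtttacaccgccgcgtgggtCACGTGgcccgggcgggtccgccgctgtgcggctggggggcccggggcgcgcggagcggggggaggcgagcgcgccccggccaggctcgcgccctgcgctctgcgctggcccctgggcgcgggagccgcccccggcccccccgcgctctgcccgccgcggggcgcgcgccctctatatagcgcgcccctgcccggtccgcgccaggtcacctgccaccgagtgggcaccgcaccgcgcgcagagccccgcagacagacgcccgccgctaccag

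The first pair, of the neutrophil-attracting chemokine Cxcl2 and the NF-kappaB regulator Bcl3, holds the kappaB motif GGGA-NN-T-N-CC, read without the hyphens and with N as any base. The second, of the matrix protease gene Adamts4 and the guidance factor gene Sema3e, holds the STAT motif TTCNNNGAA, and the third, of the stress factor Atf4 and the water channel Aqp5, holds the E-box CACGTG. The Sema3e window also holds an E-box, left in lower case because capitals mark only the motif of each pair. In genome coordinates the windows are chr14:17467206-17467505 on the minus strand for Cxcl2, chr1:88613506-88613805 on the minus strand for Bcl3, chr13:86202761-86203060 on the plus strand for Adamts4, chr4:21510325-21510624 on the minus strand for Sema3e, chr7:113684431-113684730 on the plus strand for Atf4 and chr7:132601278-132601577 on the plus strand for Aqp5. Both strands were searched, and none of the 6 matches overlapped a match of another of the motifs searched. Of all 27457 RefSeq promoters of this length, 3.97% held the kappaB motif, 8.68% the STAT motif and 6.65% the E-box, and of the 11987 promoters of tested genes 4.37%, 6.93% and 8.88%. Among promoters of genes that rose at least 2-fold in CLP + VNS the shares were 8.06%, 7.76% and 7.16%, and among those of genes that fell at least 2-fold they were 4.67%, 8.18% and 6.54%. These are descriptions of letters in a window; binding was not measured.

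Of 19060 genes in the table, 14794 passed the filter on low counts. Between CLP + VNS and Sham 5271 of them differed (35.6%); 2563 rose, 17.3%, and 2708 fell, 18.3%, by edgeR's quasi-likelihood test with a Benjamini-Hochberg adjusted p below 0.05, which is what "rose" and "fell" mean throughout. The changes were mostly small: the median absolute log2 fold change was 0.20 over all tested genes and 0.44 over those called, and 427 genes (2.89%) rose and 569 (3.85%) fell at least 2-fold. The 5 libraries of one group lay wholly above the 5 of the other in 3237 genes (21.9%). Scaling to total counts in place of TMM turned the split to 2050 higher and 3413 lower. Below, a list said to have no gene in a direction had none called by edgeR or DESeq2 in it and at most 1 gene at an unadjusted p below 0.05, except where stated. Counts of 1 to 3 members often changed when a single library was left out. Each list count against Sham is to be read beside the 17.3% and 18.3% over all tested genes, and a count near these shares is no result about the list.

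**Figure D1:**
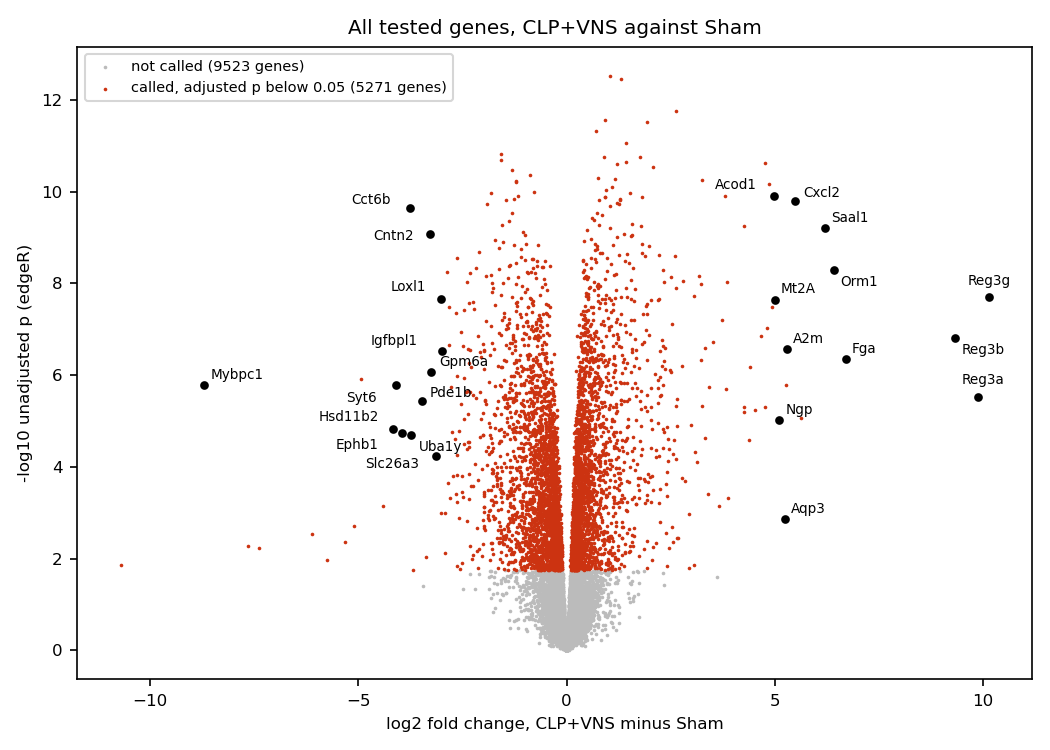
Negative log10 of edgeR's unadjusted p (vertical axis) by log2 fold change of CLP + VNS against Sham (horizontal axis) for the 14794 tested genes. The 2563 genes that rose and the 2708 that fell are all in red. The named genes have the largest changes among called genes of at least 1 CPM without overlap between the groups. Along the horizontal axis the cloud is centred on 0, with a median of -0.01, and the largest rises are acute phase and antimicrobial genes.

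The genes with the largest changes, from here to Gpm6a below, were picked among called genes of at least 1 CPM whose Sham and CLP + VNS libraries did not overlap. Their separation was thus set by that choice. Among them the largest rises belonged to the Reg3 family, secreted C-type lectins that bind bacteria. Reg3g (gene ID 24620) was at 0.0705, 0, 0, 0.0703 and 0 CPM in Sham replicates 1 to 5 and at 43.9, 13.5, 78.3, 56.2 and 17.0 CPM in CLP + VNS replicates 1, 3, 5, 8 and 11, the order used throughout. It was near 0 in every Sham library and above 13 CPM in every CLP + VNS library. Pooled over libraries, 2 Sham counts stood against 2895, a ratio of 1478 with an exact 95% counting interval of 409 to 12207. Reg3b (gene ID 24618) had 1 count in all of Sham and 18.9, 3.23, 28.0, 18.1 and 6.18 CPM in CLP + VNS, and Reg3a (gene ID 171162) had none against 9.62, 1.58, 13.3, 11.7 and 5.68 CPM, which makes it at least 197-fold higher with 3 counts over the group taken as the floor. The Reg3 genes are close copies of each other, so the division of reads among them is uncertain.

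Other genes among the strongest rises include secreted acute phase proteins that are best known from the liver, such as Orm1, Fga and A2m. Saal1 is the symbol given for a serum amyloid A-like gene, and whether its product is such a secreted protein was not checked. It rose from 1.13, 1.33, 3.12, 0.985 and 1.66 CPM to 211, 26.5, 149.6, 138 and 82.5 CPM, a log2 fold change of 6.21 ± 0.53 (standard error) with an adjusted p of 1.60e-07. Orm1, the plasma carrier orosomucoid, went from 0.387 ± 0.526 (SD, n = 5) to 33.3 ± 20.2 CPM, Fga, the fibrinogen alpha chain, from 0.0704 ± 0.122 to 8.30 ± 8.00 CPM, and A2m, a protease trap, from 1.50 ± 0.847 to 58.7 ± 50.3 CPM. In all 3 genes CLP + VNS replicate 1 was highest and replicates 3 and 11 were the lowest of that group. Metallothionein Mt2A, which binds zinc, rose from 3.61 ± 1.90 to 116 ± 67.4 CPM (log2 fold change 5.00 ± 0.53). Acod1, which makes itaconate in activated macrophages, rose from 0.267 ± 0.166 to 8.67 ± 4.02 CPM, and the neutrophil granule gene Ngp from 0.380 ± 0.288 to 13.4 ± 10.5 CPM. Aqp3, a channel for water and glycerol, was uneven: it was at 2.83, 10.9, 45.5, 2.21 and 1.47 CPM in CLP + VNS against at most 0.774 CPM in Sham, so replicate 5 carried most of its mean, and its log2 fold change was 5.24 with that library and 3.71 without it. Other large changes moved with 1 library as well: Fga was at 8.29 without Sham replicate 1, and Orm1 at 7.65 without Sham replicate 3, against 6.71 and 6.41 with all libraries.

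Several of the largest falls were in genes of low level. Mybpc1, which binds myosin in muscle filaments, was at 10.1, 3.14, 2.10, 1.13 and 2.07 CPM in Sham and had no count in any CLP + VNS library, which makes it at least 85.9-fold lower. Hsd11b2, the enzyme that inactivates corticosterone, fell from 2.98 ± 1.57 to 0.160 ± 0.159 CPM (log2 fold change -4.16 ± 0.72, adjusted p 1.89e-04). Syt6, a synaptotagmin of vesicle fusion, fell by 4.08 on the log2 scale, or by 4.72 without CLP + VNS replicate 3, and the cell adhesion gene Cntn2 fell from 34.5 ± 6.73 to 3.52 ± 1.58 CPM. The matrix crosslinker Loxl1 was better expressed: it was at 71.1, 63.8, 32.1, 84.5 and 53.0 CPM in Sham and 5.22, 12.0, 7.42, 6.20 and 6.67 CPM in CLP + VNS, a log2 fold change of -3.02 ± 0.32 (adjusted p 1.61e-06). The lowest Sham library for Loxl1, replicate 3, was still more than 2-fold above the highest CLP + VNS library, replicate 3 of that group. Gpm6a, a membrane glycoprotein that also occurs in mesothelium, fell from 228, 135, 108, 68.6 and 44.5 to 17.9, 21.5, 10.2, 8.19 and 3.44 CPM.

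**Figure D2:**
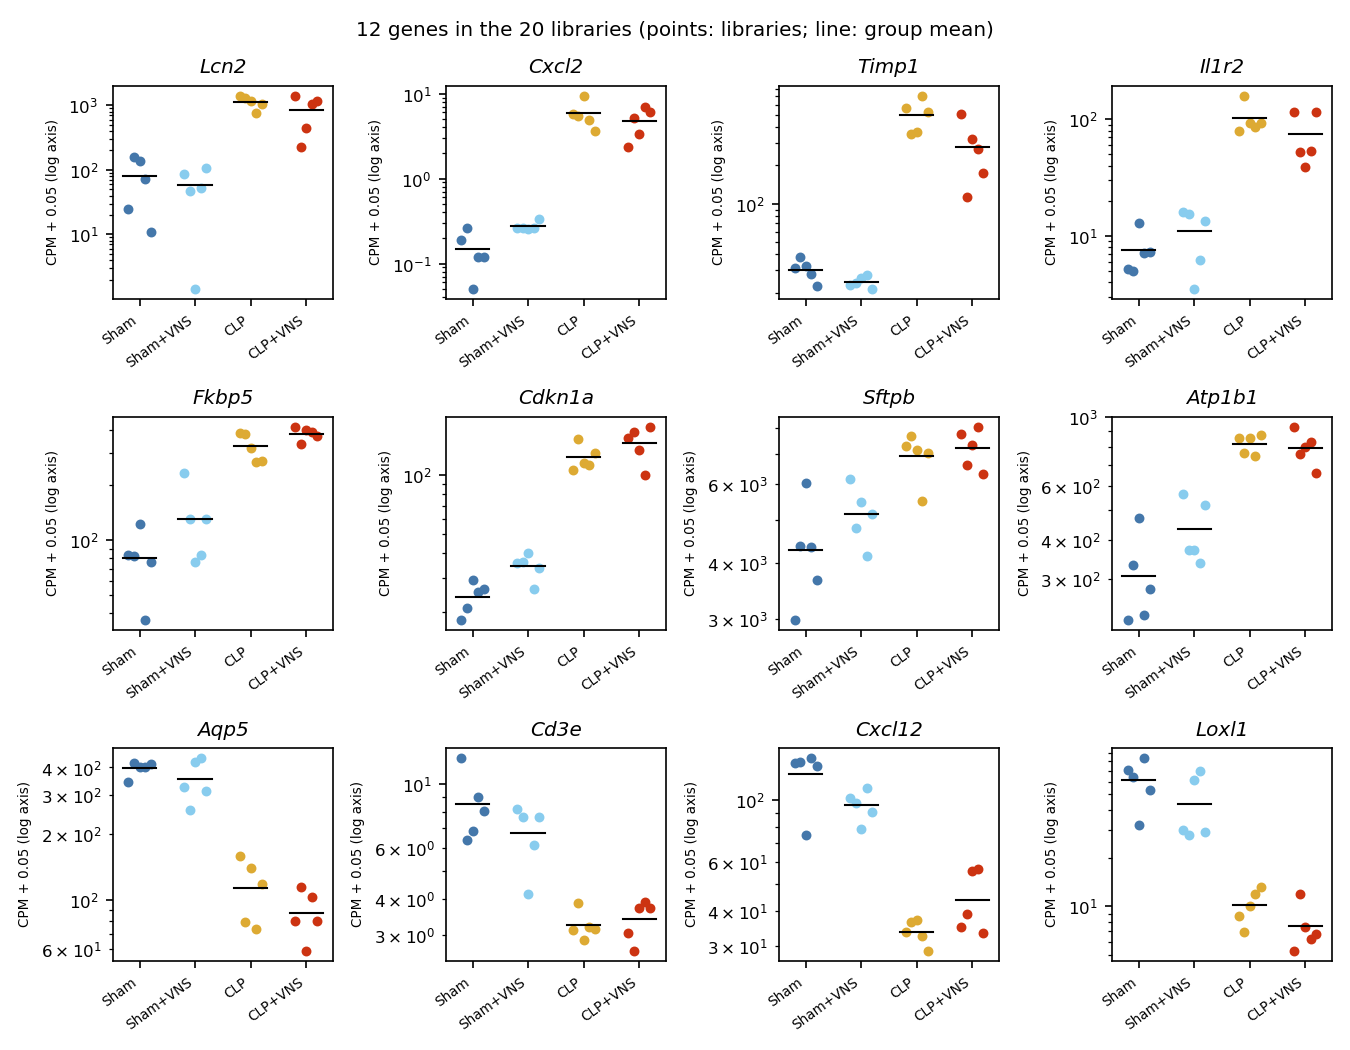
Level in CPM (log axis, with 0.05 added) of 12 genes in each library of the 4 groups, with the group mean as a bar. The 12 genes were picked from those named in the text, some of them by a rule that requires no overlap. That Sham and CLP + VNS do not overlap in any panel is thus no result, and 21.9% of all tested genes had no overlap. In most panels the CLP libraries lie beside the CLP + VNS libraries.

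Among receptors that sense bacterial products and danger signals, 12 of 22 tested genes were higher and 1 was lower, at a median log2 fold change of 0.32 beside -0.01 over all genes. The share called higher over all genes is 17.3%. Cd14, the lipopolysaccharide co-receptor, was at 26.4, 16.7, 33.7, 18.4 and 26.2 CPM in Sham and 72.0, 59.8, 55.9, 57.8 and 55.7 CPM in CLP + VNS. The CLP + VNS libraries were close together, all above the highest Sham library, and the log2 fold change was 1.31 ± 0.14 (adjusted p 1.57e-06). Lbp, the plasma protein that hands lipopolysaccharide to CD14, rose by 2.22 ± 0.24, and Myd88, the adaptor under most Toll-like receptors, by 0.71 ± 0.09. Tlr4 itself was higher by only 0.31 ± 0.11 (adjusted p 0.0401), and that call was lost when any 1 of Sham replicates 1, 2, 4 and 5 or CLP + VNS replicates 1, 5 and 8 was left out, with adjusted p from 0.0505 to 0.128. The inhibitory kinase Irak3, which damps these receptors, rose by 1.26 ± 0.16.

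Of 18 NF-kappaB subunits and feedback inhibitors 10 were higher and 0 lower, at a median of 0.26. Zc3h12a, an RNase that degrades cytokine transcripts, was at 13.5, 11.3, 14.4, 12.5 and 14.7 CPM in Sham and 32.7, 31.2, 24.5, 30.1 and 36.6 CPM in CLP + VNS, without overlap (log2 fold change 1.22 ± 0.10, adjusted p 6.34e-08). Nfkbia, which holds NF-kappaB in the cytoplasm, rose by 1.18 ± 0.15, the nuclear regulators Bcl3 and Nfkbiz by 1.40 ± 0.14 and 0.91 ± 0.10, and the ubiquitin-editing brake Tnfaip3 by 0.65 ± 0.09. Bcl3 is the gene whose promoter is printed above with a kappaB match 38 bases before its start.

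Cytokine genes went both ways, with 6 of 14 higher and 2 lower. Tnf was at 2.05, 2.03, 1.81, 1.62 and 1.86 CPM in Sham and 11.9, 8.17, 6.56, 12.7 and 17.9 CPM in CLP + VNS, where every library exceeded the highest Sham library more than 3-fold. Its log2 fold change was 2.60 ± 0.25, that of Il1a was 2.22 ± 0.21 and that of the interleukin-1 receptor antagonist Il1rn 1.01 ± 0.18. Il33, an alarmin stored in the nuclei of lung structural cells, fell: it was at 570.2, 438, 446, 456 and 513 CPM in Sham and 261, 324, 325, 284 and 294 CPM in CLP + VNS (log2 fold change -0.70 ± 0.10). Il6 and Il10 lay under the count filter, with Il6 at 0.0995 ± 0.0661 CPM in Sham and 0.159 ± 0.0623 CPM in CLP + VNS. Neither passed the exact two-sided permutation test, with Benjamini-Hochberg adjusted p of 0.447 and 0.438 over 13 such genes. The smallest p that 5 against 5 allows is 0.00794.

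Chemokines rose in 9 and fell in 4 of 22 genes. Cxcl2, the neutrophil attractant with the kappaB match 73 bases before its start, was at 0.141, 0.210, 0, 0.0703 and 0.0690 CPM in Sham and 2.31, 5.16, 3.31, 6.98 and 6.11 CPM in CLP + VNS (log2 fold change 5.48 ± 0.45, adjusted p 5.81e-08). The related Cxcl1 rose by 2.51 ± 0.35, and the monocyte attractants Ccl2 and Ccl3 by 2.19 ± 0.34 and 1.74 ± 0.24. In the opposite direction went Cxcl12, the chemokine that keeps lymphocytes and progenitors in place, at 136, 136, 74.8, 141 and 132 CPM in Sham against 35.0, 39.1, 55.6, 56.3 and 33.3 CPM in CLP + VNS. Sham replicate 3 was the lowest of its group for Cxcl12 and still exceeded the highest CLP + VNS library.

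Receptors followed: 15 of 25 cytokine receptors were higher and 3 lower, at a median of 0.60. The decoy receptor Il1r2, which binds interleukin-1 without signalling, was at 5.15, 4.96, 12.8, 7.10 and 7.18 CPM in Sham and 115, 52.3, 38.8, 53.9 and 116 CPM in CLP + VNS, a log2 fold change of 3.34 ± 0.42. Replicates 1 and 11 of CLP + VNS were about 2-fold above the other 3 libraries of that group. Il4r, the interleukin-4 receptor chain, showed almost no spread within CLP + VNS, at 461, 488, 440.5, 469 and 498 CPM against 177, 203, 257, 176 and 197 CPM in Sham (log2 fold change 1.22 ± 0.09, adjusted p 2.57e-08). Osmr, the oncostatin M receptor, rose by 1.54 ± 0.16 and Csf2rb, the shared chain of the GM-CSF and interleukin-3 receptors, by 1.62 ± 0.18.

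Below these receptors, Stat3 rose from 243 ± 27.5 to 387 ± 23.4 CPM (SD, n = 5) and its feedback inhibitor Socs3 by 1.09 ± 0.18 on the log2 scale. Socs2 rose by 1.58 ± 0.14 and the STAT target kinase Pim1 by 0.86 ± 0.14, while the JAK-STAT list as a whole had 7 of 18 genes higher, 4 lower and a median of 0.07. Acute phase and host defence proteins rose in 25 of 28 genes and fell in none, with a median of 2.89, or 2.26 without CLP + VNS replicate 1. Haptoglobin, Hp, which captures free hemoglobin, was at 8.75, 18.8, 27.1, 28.8 and 23.3 CPM in Sham and 203, 124, 95.5, 121 and 198 CPM in CLP + VNS. Lcn2, which withholds iron from bacteria, ranged from 10.8 to 155 CPM in Sham and from 226 to 1367 CPM in CLP + VNS; its log2 fold change was 3.41 ± 0.78 (adjusted p 0.00245), a call lost with the replicate number as a block (adjusted p 0.0952). S100a8, a calcium-binding alarmin of neutrophils, rose by 3.07 ± 0.33, the long pentraxin Ptx3 by 3.14 ± 0.62 and the copper carrier Cp by 1.16 ± 0.09. The mean log2 CPM over this list ran from 2.99 to 3.59 in Sham and 5.31 to 6.97 in CLP + VNS, lowest in replicate 3 and highest in replicate 1.

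**Figure D3:**
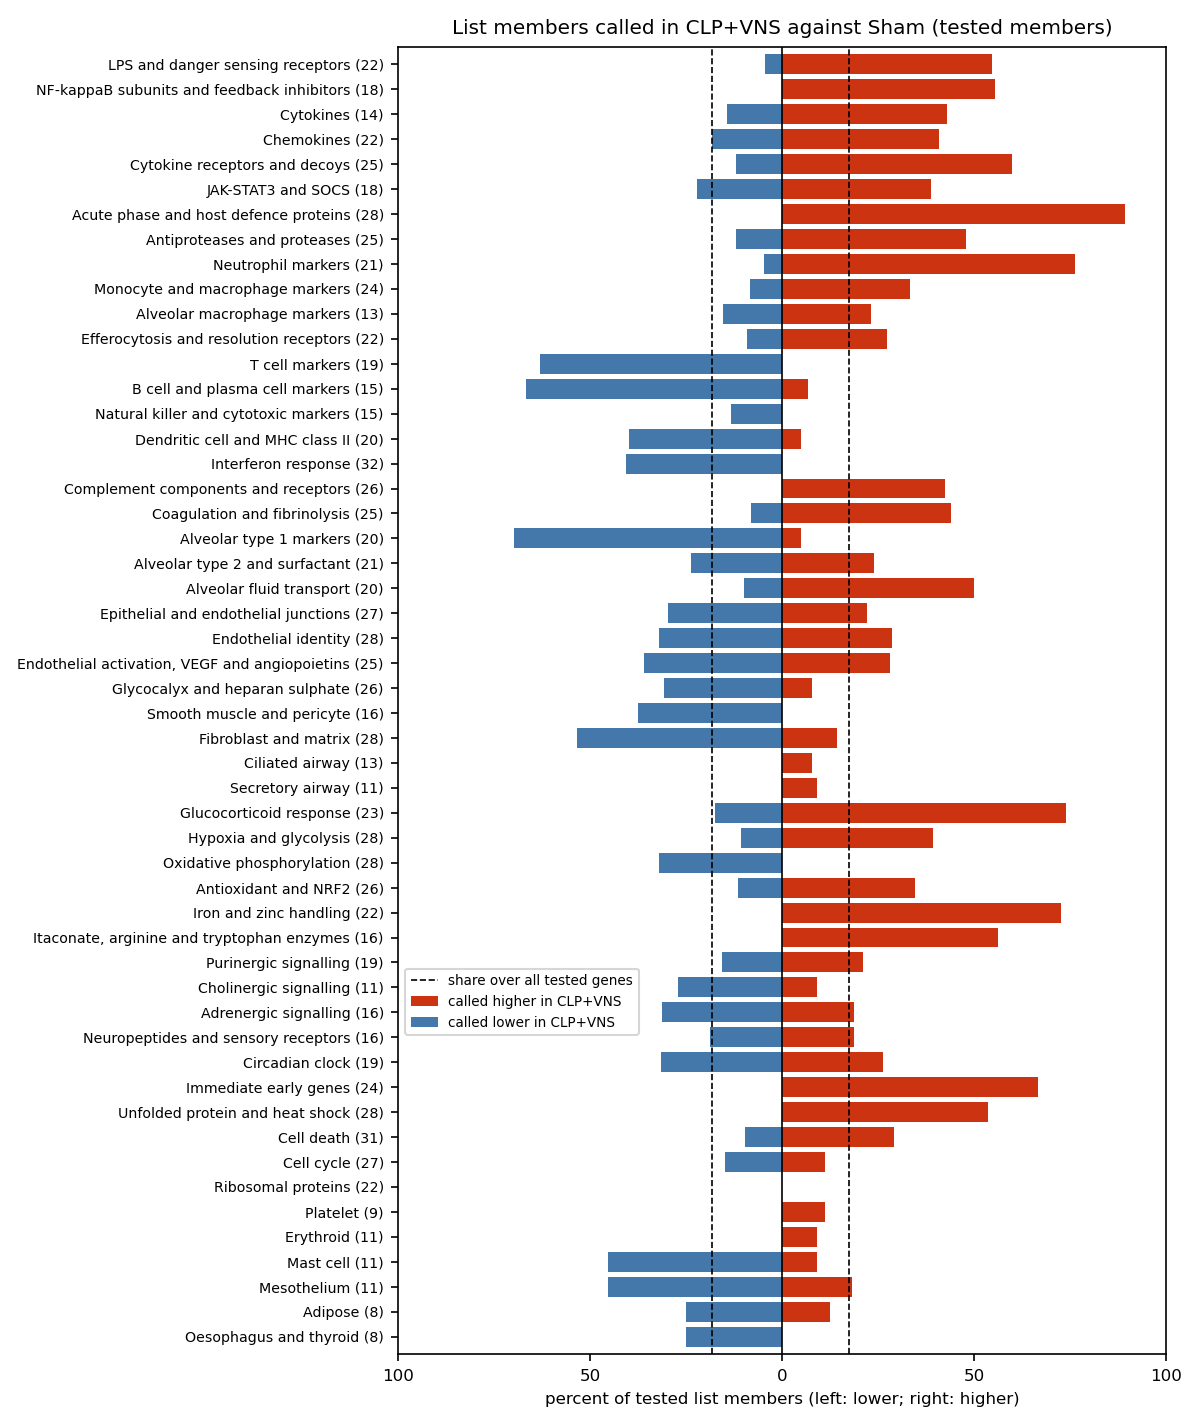
Percent of tested members of each gene list with at least 8 tested genes that rose (right) or fell (left) in CLP + VNS against Sham, with dashed lines at the 17.3% and 18.3% of all tested genes. Acute phase, neutrophil, glucocorticoid and iron and zinc genes rise most often, and alveolar type 1, T cell and B cell genes fall most often.

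Proteases and their inhibitors rose in 12 of 25 genes against 3 that fell. Timp1, the inhibitor of matrix metalloproteinases, was at 31.4, 38.0, 32.1, 27.8 and 22.6 CPM in Sham and 508, 112, 323, 269.9 and 173 CPM in CLP + VNS (log2 fold change 3.19 ± 0.32). Adamts4, an aggrecan-cleaving protease whose promoter is printed with a STAT match 121 bases before its start, went from 0.466 ± 0.233 to 6.64 ± 0.838 CPM. The lysosomal protease Ctsl rose by 1.27 ± 0.12 and Slpi, an inhibitor of neutrophil elastase, by 2.19 ± 0.32.

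Neutrophil markers rose in 16 of 21 tested genes with a median of 2.01, and 1 fell. Their summed level ran from 536 to 1261 CPM in Sham and 2288 to 6159 CPM in CLP + VNS, with Sham replicate 3 the highest of its group and CLP + VNS replicates 5 and 3 the lowest of theirs. The formyl peptide receptor Fpr2 was at 1.55, 1.68, 1.02, 2.60 and 1.86 CPM in Sham and 9.92, 4.87, 4.90, 6.77 and 13.4 CPM in CLP + VNS. The gelatinase Mmp9 rose by 2.63 ± 0.41 and the bacterial wall sensor Pglyrp1 by 2.27 ± 0.34. The exception was Retnlg, a resistin-like gene of neutrophils, the 1 marker that fell: it was at 4.16, 4.12, 5.88, 7.17 and 6.56 CPM in Sham and 0.746, 0.430, 0.576, 0.641 and 3.02 CPM in CLP + VNS, a log2 fold change of -2.35 ± 0.43 (adjusted p 3.10e-04). Of the CLP + VNS libraries 4 were under 1 CPM, and the 1 with the most, replicate 11, was also the library highest in Ngp and Mmp9; without it the log2 fold change was -3.21. The primary granule gene Mpo was below the filter, with 9.94 CPM in Sham replicate 1 as its highest value.

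Markers of monocytes and macrophages were split, with 8 of 24 higher, 2 lower and a median of 0.02. Adgre1, which encodes F4/80, was at 17.5, 12.1, 6.97, 12.4 and 15.9 CPM in Sham and 35.5, 76.1, 54.3, 44.3 and 47.8 CPM in CLP + VNS, and replicate 3, low in acute phase genes, had the highest value. The integrin Itgam rose by 1.45 ± 0.25, shared by neutrophils and macrophages, and the scavenger receptor Msr1 by 1.10 ± 0.22. Cd68, Cx3cr1 and Cd163, also in this list, were not called, with log2 fold changes of 0.012, -0.25 and 0.61. Alveolar macrophage markers rose in 3 and fell in 2 of 13, beside 17.3% and 18.3% over all tested genes. Of these markers Marco, Pparg and Fabp4 were not called, with log2 fold changes of 1.73, -0.52 and -1.77. A mixed list held genes for clearing dead cells and receptors and mediators of the start and resolution of inflammation. Of its 22 genes 6 rose and 2 fell, beside 17.3% and 18.3% over all tested genes. The leukotriene B4 receptor Ltb4r rose by 2.50 ± 0.25 and Alox5ap, which feeds leukotriene synthesis, by 1.14 ± 0.15, whereas Gas6, the ligand that bridges dying cells to their phagocytes, fell from 847 ± 46.9 to 508 ± 60.2 CPM.

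Of 19 T cell markers 12 fell and none rose (median -0.75), against 18.3% of all genes that fell. Cd3e, a chain of the T cell receptor complex, was at 12.3, 6.36, 6.82, 8.93 and 8.01 CPM in Sham and 2.98, 2.58, 3.67, 3.85 and 3.65 CPM in CLP + VNS (log2 fold change -1.34 ± 0.20, adjusted p 3.21e-05). Both co-receptors were lower, Cd4 with a log2 fold change of -0.95 ± 0.16 and Cd8a with -0.83 ± 0.18, and so was the kinase Lck with -0.92 ± 0.15. Of 15 B cell and plasma cell genes 10 fell and 1 rose, with a median of -1.34. Cd79a, a signalling chain of the B cell receptor, was at 22.4, 18.8, 11.7, 33.8 and 19.8 CPM in Sham and 8.05, 6.17, 7.13, 7.91 and 9.96 CPM in CLP + VNS, without overlap. Among natural killer genes 2 of 15 were lower, a smaller share than the 18.3% of all genes. These were the granzyme Gzmm at -0.98 ± 0.24 and the factor Tbx21 at -0.80 ± 0.20. The count of natural killer genes that fell was 4 without Sham replicate 1 or without CLP + VNS replicate 1.

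Of 20 genes of dendritic cells and MHC class II presentation, 8 were lower and 1 was higher. Ciita, the master activator of MHC class II genes, was at 17.6, 19.9, 16.8, 21.7 and 19.7 CPM in Sham and 11.6, 10.5, 11.6, 14.0 and 12.4 CPM in CLP + VNS without overlap (log2 fold change -0.67 ± 0.10). The invariant chain Cd74 fell from 1107 ± 88.2 to 805 ± 102 CPM. Interferon response genes fell in 13 of 32 and rose in none, with Gbp5 at -0.83 ± 0.15 and Ifi44 at -0.62 ± 0.12. That count rested on single libraries: 4 fell without Sham replicate 2, 8 without CLP + VNS replicate 1, and 7 without replicate 8 or 11.

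Complement and clotting genes rose more often than they fell. Among complement components and receptors 11 of 26 rose and none fell, with the central component C3 up by 1.11 ± 0.19, the receptor C3ar1 by 1.22 ± 0.14 and the late component C7 by 0.89 ± 0.14. Of 25 genes of coagulation and fibrinolysis 11 rose and 2 fell. F3, tissue factor, which starts clotting, was at 77.0, 96.9, 93.4, 85.7 and 85.9 CPM in Sham and 153, 172, 146, 137 and 139 CPM in CLP + VNS. The plasminogen activator Plat rose by 1.65 ± 0.17 and the urokinase receptor Plaur by 1.40 ± 0.17.

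Among genes of the alveolar wall, of 20 type 1 markers 14 fell and 1 rose, with a median of -0.47. Aqp5, the water channel of the type 1 cell surface, was at 344, 421, 402, 403 and 416 CPM in Sham and 80.2, 115, 58.6, 103 and 80.0 CPM in CLP + VNS. The lowest Sham library was nearly 3-fold above the highest CLP + VNS library, and the log2 fold change was -2.18 ± 0.21 (adjusted p 5.72e-07). Sema3e fell by 1.52 on the log2 scale, the receptor Gprc5a from 533 ± 14.0 to 306 ± 20.0 CPM, and Vegfa, which type 1 cells supply to the capillaries, from 1015 ± 82.0 to 575 ± 70.0 CPM. The type 1 markers Ager and Pdpn fell less, by 0.47 and 0.66. The 1 type 1 marker that rose was Hopx, by 0.30 ± 0.11 (edgeR adjusted p 0.0334), and that count was 0 without Sham replicate 1. The type 2 list had 5 genes higher and 5 lower of 21 (median -0.051). Sftpb, which spreads the surfactant film, was at 2987, 4362, 6036, 4356 and 3669 CPM in Sham and 7752, 6608, 7334, 8059.9 and 6325 CPM in CLP + VNS, and the fatty acid synthase Fasn rose by 0.40 ± 0.09. Among the type 2 genes that fell were Il33, given above, and Muc1, with a log2 fold change of -0.56 ± 0.13. Sftpc, Sftpa1 and Abca3, also in this list, were not called, with log2 fold changes of -0.045, 0.32 and 0.10. The count of type 2 genes that rose was 3 without Sham replicate 1 or 5 or without CLP + VNS replicate 1 or 8. Airway cells changed little by this count, with 1 of 13 ciliated and 1 of 11 secretory genes higher and none lower; without Sham replicate 5 these counts were 4 and 4.

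Genes that move salt and water out of the airspace rose in 10 of 20 cases and fell in 2. Atp1b1, the beta subunit of the sodium pump, was at 220.2, 331, 473, 228 and 278 CPM in Sham and 932, 759, 800.0, 832 and 658 CPM in CLP + VNS (log2 fold change 1.38 ± 0.18), and every CLP + VNS library exceeded every Sham library for it. The kinase Sgk1, which keeps sodium channels at the surface, rose by 0.61 ± 0.18, although Sham replicate 2 at 136 CPM exceeded 3 CLP + VNS libraries. Junction genes were divided, 6 higher and 8 lower of 27. Cldn5, the claudin of capillary endothelium, was at 254, 358, 427, 319.7 and 461 CPM in Sham and 543, 655, 692, 693 and 852 CPM in CLP + VNS, and Jam2, an adhesion molecule of endothelial junctions, rose by 1.02 ± 0.11. The junction plakoglobin Jup fell by 0.42.

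Endothelial identity genes divided in the same manner, with 8 higher and 9 lower of 28. The VEGF receptors went opposite ways: Kdr was at 368, 462, 512, 489 and 488 CPM in Sham and 184, 291, 298, 286 and 315 CPM in CLP + VNS, whereas Flt1 rose from 318 ± 65.5 to 537 ± 53.5 CPM. Their co-receptors fell, Nrp1 with a log2 fold change of -1.22 ± 0.14 and Nrp2 with -0.78 ± 0.06. Ednrb, the endothelin receptor of alveolar capillary cells, rose by 1.12 ± 0.15, the nitric oxide synthase Nos3 by 0.79 ± 0.14 and the barrier-protective S1pr1 by 0.76 ± 0.08. Plvap, which forms the diaphragms of fenestrae and caveolae, fell by 0.55 on the log2 scale. Icam1, which leukocytes grip when they leave the blood and which type 1 cells also carry, fell rather than rose: it was at 438, 514, 463, 522 and 516 CPM in Sham and 282, 284, 260.1, 299 and 279 CPM in CLP + VNS. Angpt2, the Tie2 ligand that loosens capillaries, fell from 9.42 ± 1.28 to 3.43 ± 0.544 CPM.

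The glycocalyx, the sugar coat of the capillary surface, had 2 of 26 genes higher and 8 lower; 4 were higher without Sham replicate 2. Hyal2, which cuts hyaluronan, was at 94.4, 152, 189, 124 and 159 CPM in Sham and 398, 396, 406, 379.6 and 481 CPM in CLP + VNS, and Has3, which makes it, fell from 4.69 ± 1.57 to 1.41 ± 0.232 CPM. The proteoglycan core Sdc3 fell by 1.08 on the log2 scale. Contractile cells, the smooth muscle and pericytes, had 6 of 16 markers lower and none higher, the actin Acta2 with a log2 fold change of -0.78 ± 0.19 and the pericyte regulator Rgs5 with -0.76 ± 0.16.

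Among 28 fibroblast and matrix genes 15 were lower and 4 higher, at a median of -0.63; only 2 rose without Sham replicate 5 or without CLP + VNS replicate 5 or 8. The lysyl oxidases, which crosslink collagen and elastin, diverged: Loxl1 fell, as given above, and Lox rose from 262, 185, 253, 213 and 158 CPM in Sham to 775, 755, 853, 595 and 719 CPM in CLP + VNS (log2 fold change 1.79 ± 0.16). The membrane collagen Col13a1 fell from 99.9 ± 11.6 to 42.3 ± 6.90 CPM. Pdgfra, the growth factor receptor of lung fibroblasts, rose from 181 ± 10.1 to 410.3 ± 69.1 CPM, so the fall was not shared by all fibroblast genes. Col1a1 depended on Sham replicate 1, with a log2 fold change of -0.96 ± 0.27 with that library and -0.58 (adjusted p 0.0329) without it.

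Of 23 genes known to respond to glucocorticoids 17 were higher and 4 lower, at a median of 1.18. Fkbp5, a co-chaperone that dampens the receptor, was at 82.8, 82.4, 123, 36.6 and 76.3 CPM in Sham and 415, 334, 397, 390.2 and 367 CPM in CLP + VNS. The CLP + VNS values lay close together, the Sham values were spread more widely without reaching them, and the log2 fold change was 2.25 ± 0.29 (adjusted p 9.78e-06). Pdk4, which spares glucose, rose by 2.31 ± 0.23, the leucine zipper protein Tsc22d3 by 1.18 ± 0.19, and Errfi1 and Cebpd by 1.21 ± 0.11 and 1.51 ± 0.15. The receptor gene itself, Nr3c1, fell from 293 ± 7.44 to 222 ± 5.84 CPM, a small change with very little spread.

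**Figure D4:**
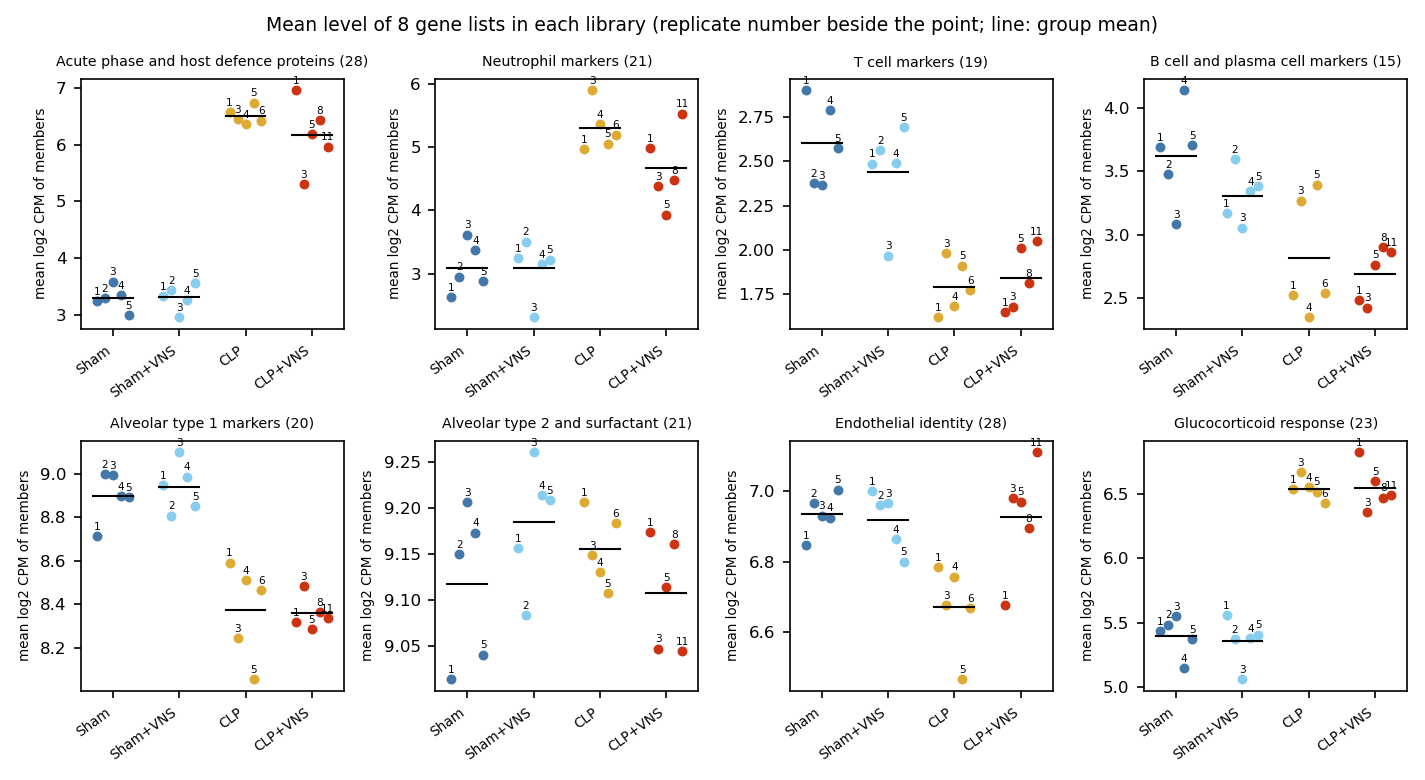
Mean log2 CPM over the tested members of 8 gene lists in each library of the 4 groups, with the group mean as a bar. Acute phase scores are lowest in replicate 3 and highest in replicate 1 within CLP + VNS, and the endothelial score of CLP + VNS replicate 1 sits among the CLP libraries.

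Metabolic genes shifted selectively. In the hypoxia and glycolysis list 11 of 28 rose and 3 fell; the glucose carrier Slc2a3 was at 18.8, 14.0, 20.3, 16.2 and 13.7 CPM in Sham and 81.2, 61.7, 42.3, 66.9 and 129 CPM in CLP + VNS, the lactate exporter Slc16a3 rose by 1.31 ± 0.20 and the glycolytic switch Pfkfb3 by 0.82 ± 0.14. Oxidative phosphorylation genes fell in 9 of 28, a count that was 15 when scaled to total counts. Of 26 antioxidant genes 9 rose and 3 fell. The superoxide dismutases parted: mitochondrial Sod2 was at 113, 111, 134, 115 and 110.2 CPM in Sham and 494, 317, 367, 514 and 520.0 CPM in CLP + VNS (log2 fold change 1.92 ± 0.12), and extracellular Sod3 fell from 75.3 ± 17.5 to 29.4 ± 5.16 CPM.

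Iron and zinc genes rose in 16 of 22 cases and fell in none (median 0.86). Besides Mt2A, Mt1 rose by 2.31 ± 0.34 and the zinc importer Slc39a14 by 1.44 ± 0.22; reads of metallothionein copies may be shared between them. Enzymes of itaconate, arginine and tryptophan metabolism rose in 9 of 16. Nos2, the inducible nitric oxide synthase, was at 5.71, 8.32, 10.8, 9.28 and 7.46 CPM in Sham and 21.3, 24.2, 15.0, 19.7 and 61.0 CPM in CLP + VNS, with replicate 11 far above the rest, and Asl, which regenerates arginine, rose by 0.57 ± 0.07.

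Acetylcholine and noradrenaline are the transmitters of the vagal reflex. Many genes of the cholinergic list were sparse in whole lung. Of 25 cholinergic genes only 11 passed the filter, 1 rose and 3 fell. The gene that rose was Chrna7, the alpha 7 nicotinic receptor tied to the anti-inflammatory reflex: it was at 0.212, 0.629, 0.653, 0.492 and 0.621 CPM in Sham and 1.57, 2.65, 1.95, 3.85 and 2.18 CPM in CLP + VNS (log2 fold change 2.21 ± 0.38, adjusted p 1.48e-04). All 5 CLP + VNS libraries exceeded all Sham libraries, though none reached 4 CPM. The nicotinic subunit Chrna4 and the muscarinic receptor Chrm2 fell, with log2 fold changes of -2.45 ± 0.41 and -1.34 ± 0.41, the latter -1.96 without CLP + VNS replicate 3; the call of Chrm2 was lost with the replicate number as a block (adjusted p 0.0647). In CLP without stimulation Chrna7 was at 1.14, 2.68, 2.68, 1.98 and 0.955 CPM, and CLP + VNS minus CLP was 0.37 ± 0.33 (adjusted p 0.667).

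Of 16 adrenergic genes 3 were higher and 5 lower, beside 17.3% higher and 18.3% lower over all tested genes. Slc6a2, the noradrenaline transporter, was at 30.1, 33.5, 31.9, 28.4 and 56.3 CPM in Sham and 122, 107, 115, 88.3 and 134 CPM in CLP + VNS. The amine-degrading Maob fell from 120.2 ± 20.3 to 51.5 ± 1.28 CPM, and the receptors Adra1a and Adrb1 fell, with log2 fold changes of -1.22 ± 0.21 and -1.04 ± 0.20. Among neuropeptide and sensory genes 3 of 16 rose and 3 fell, close to the shares over all tested genes. The galanin gene Gal was at 0.635, 0.489, 3.92, 0.141 and 0.207 CPM in Sham and 18.9, 16.2, 9.22, 19.9 and 3.65 CPM in CLP + VNS, where Sham replicate 3 at 3.92 CPM just exceeded CLP + VNS replicate 11; the log2 fold change was 3.66 ± 0.90, and 5.17 without that Sham library. The partner proteins of the calcitonin-like receptor diverged, Ramp3 with 1.16 ± 0.16 and Ramp1 with -0.81 ± 0.15. The purinergic list had 4 higher and 3 lower members of 19, also close to those shares. Its nucleotide receptors P2ry6 and P2ry14 rose by 0.88 ± 0.11 and 0.67 ± 0.12.

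The circadian clock list had 5 genes higher and 6 lower of 19, and the lower count was 3 without CLP + VNS replicate 3. Over all tested genes 17.3% were higher and 18.3% lower. The activating factor gene rose: Arntl, the partner of CLOCK on E-boxes, was at 6.91, 10.3, 10.4, 17.2 and 8.35 CPM in Sham and 57.2, 73.2, 41.4, 21.1 and 66.7 CPM in CLP + VNS. The output gene Dbp fell from 168, 102, 81.4, 63.6 and 115 CPM to 5.29, 5.16, 18.2, 57.4 and 8.91 CPM. Per3 fell too, with a log2 fold change of -1.42 ± 0.33, whereas Nfil3 rose by 1.88 ± 0.18 (adjusted p 4.13e-07). CLP + VNS replicate 8 lay closest to Sham in Arntl, Dbp and Per3, at 21.1 CPM for Arntl and 57.4 CPM for Dbp. Without it Dbp changed by -3.49 in place of -2.48. The sources used here do not name the time of day at which lungs were taken, so any difference in that time cannot be told apart from the treatment.

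Immediate early genes rose in 16 of 24 and fell in none, Dusp1, a phosphatase that switches off MAP kinases, by 1.44 ± 0.15, Junb by 1.14 ± 0.12, the RNA-binding brake Zfp36 by 0.94 ± 0.10 and Myc by 0.64 ± 0.09. Genes of the unfolded protein and heat shock responses rose in 15 of 28 and fell in none. Atf4, whose promoter is printed with an E-box 82 bases before its start, was at 222, 242, 264, 220.2 and 213 CPM in Sham and 399, 366, 373, 395 and 407 CPM in CLP + VNS (log2 fold change 0.74 ± 0.06, adjusted p 9.18e-08). The chaperone Hspa5 rose by 0.80 ± 0.16, with CLP + VNS replicate 3 close to the highest Sham library, and the stress sensors Ern1 and Atf6 by 0.92 ± 0.10 and 0.45 ± 0.05.

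Cell death genes rose in 9 of 31 and fell in 3, beside 17.3% and 18.3% over all tested genes. Cdkn1a, which encodes the cell cycle inhibitor p21, had the clearest separation: it was at 18.1, 20.9, 29.1, 25.4 and 26.1 CPM in Sham and 156, 167, 135, 101 and 178 CPM in CLP + VNS (log2 fold change 2.62 ± 0.16, adjusted p 8.34e-09). The survival factor Mcl1 rose by 0.57 ± 0.07, Ripk1 rose by 0.48 ± 0.04 and Mlkl, which carries out necroptosis, fell by 0.50. Against Sham the cell cycle list had 3 of 27 higher and 4 lower, both under those shares over all tested genes. The mitotic kinase Aurka rose by 0.67 ± 0.12 while Ccnd1 and E2f1 fell by 0.41 and 0.64. Of 22 ribosomal protein genes edgeR called none, 1 had an unadjusted p below 0.05 and DESeq2 called 1, higher in CLP + VNS.

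Set against CLP without stimulation, the same CLP + VNS libraries differed in few single genes. The Sham libraries do not enter this difference. Of 14794 genes 4 were called (0.0270%), all lower in CLP + VNS, and 1927 (13.0%) had an unadjusted p below 0.05, 940 higher (6.35%) and 987 lower (6.67%). DESeq2 called 144, and edgeR called 0 with total count scaling and 277 without CLP + VNS replicate 1. Tacc3, which organises the mitotic spindle, was at 12.7, 10.6, 15.2, 15.0 and 12.4 CPM in Sham, 15.2, 16.4, 11.7, 13.0 and 15.8 CPM in CLP + VNS and 18.8, 26.9, 26.8, 22.9 and 24.0 CPM in CLP. CLP + VNS overlapped Sham and lay wholly below CLP, with a difference from CLP of -0.72 ± 0.12 on the log2 scale (adjusted p 0.0421). Nckap1l, an actin regulator of blood cells, was at 55.7, 45.4, 42.6, 49.9 and 52.8 CPM in CLP + VNS and 62.1, 73.6, 70.6, 69.6 and 73.1 CPM in CLP (-0.50 ± 0.08). Kmt5a, a histone H4 methyltransferase, differed by -0.35 ± 0.06 and Heatr6 by -0.55 ± 0.09; against Sham the 4 genes had log2 fold changes of 0.13, 0.04, -0.094 and 0.086, none of them called. Each of the 4 lost its call in at least 8 of the 10 fits that left out 1 CLP + VNS or CLP library, where the adjusted p reached 0.149.

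None of these 4 calls is in a gene list, and the counts that follow are at unadjusted p, beside 6.35% higher and 6.67% lower over all genes. Of the endothelial identity genes 15 of 28 were higher and 0 lower in CLP + VNS than in CLP, with a median difference of 0.27. The mean endothelial score was 6.46 to 6.78 in CLP, 6.68 in CLP + VNS replicate 1, 6.90 to 7.11 in the other 4 CLP + VNS libraries and 6.85 to 7.01 in Sham. Kdr was at 258, 191, 204, 148 and 178 CPM in CLP, and its difference between CLP + VNS and CLP was 0.49 ± 0.15 (unadjusted p 0.00418, adjusted 0.191). Cell cycle genes were lower in 14 of 27 (median -0.55) and higher in 0.

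**Figure D5:**
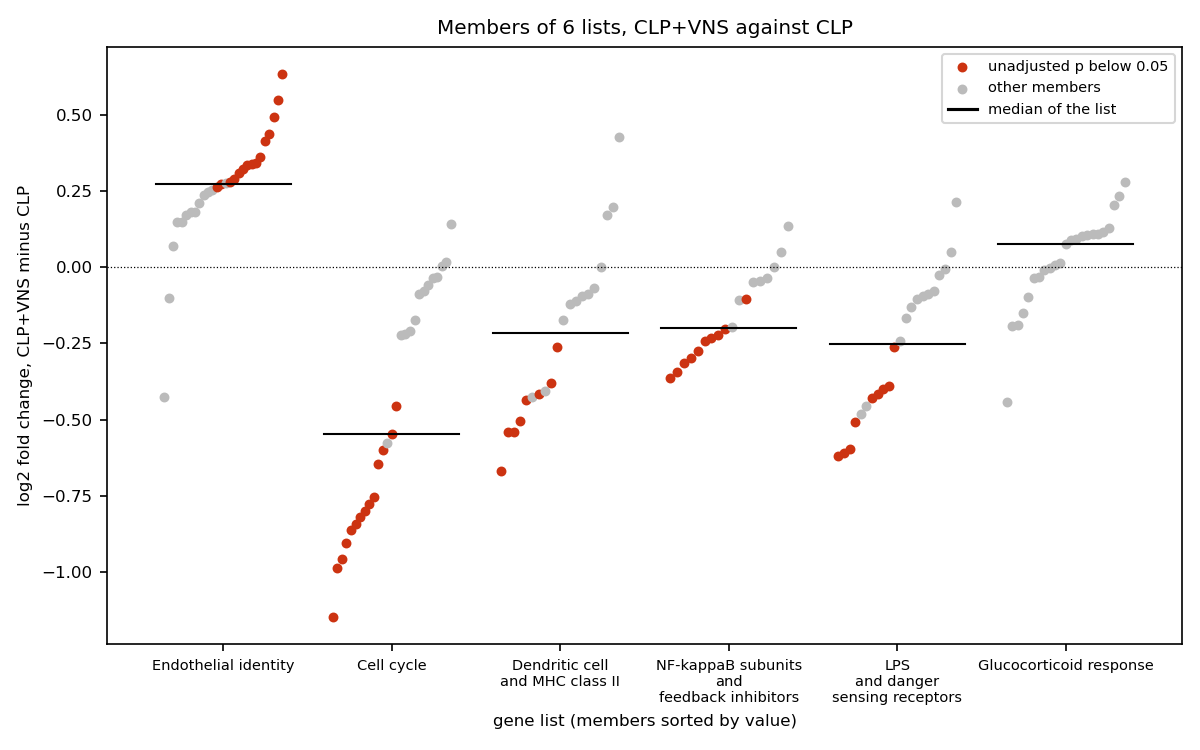
Log2 difference of CLP + VNS from CLP for each tested member of 6 gene lists, with members at an unadjusted p below 0.05 in red and the list median as a bar. Endothelial genes lie mostly above 0, with a median of 0.27, and cell cycle genes mostly below, with a median of -0.55.

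Inflammatory lists were uneven in this difference. The counts lower and higher in CLP + VNS than in CLP were 10 and 0 of 18 for the NF-kappaB list, 9 and 0 of 22 for sensing receptors, 8 and 0 of 21 for neutrophil markers, and 10 and 0 of 25 for cytokine receptors. For monocyte and macrophage markers these counts were 10 and 0 of 24, and for complement genes 7 and 0 of 26. They were 2 and 0 of 14 for cytokines, 4 and 1 of 22 for chemokines, 3 and 0 of 18 for the JAK-STAT list, 4 and 0 of 28 for acute phase proteins and 0 and 2 of 32 for interferon response genes. Neutrophil marker sums, 4672 to 6658 CPM in CLP, overlapped those of CLP + VNS. Sod2 was at 548, 688, 577, 643 and 709 CPM in CLP, above every CLP + VNS library, and its difference was -0.52 ± 0.12 (unadjusted p 3.70e-04, adjusted 0.127). Genes of dendritic cells and MHC class II were lower in 8 of 20. Cd74 was at 964, 1069, 1078, 1141 and 1118 CPM in CLP, so that its log2 difference from Sham was -0.46 with stimulation and -0.044 without it.

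The comparison of CLP alone with Sham uses the same 5 Sham libraries, so the values stand side by side only. CLP against Sham gave 5955 calls (40.3%), 19.8% higher and 20.5% lower. The acute phase list had medians of 2.89 with stimulation and 2.86 without, the neutrophil list 2.01 and 2.42, and the cell cycle list 0.12 and 0.82. Of 3 genes chosen after their values were seen, the log2 fold changes with and without stimulation were -2.18 and -1.80 for Aqp5, 2.25 and 2.01 for Fkbp5, and 2.62 and 2.37 for Cdkn1a. The choice of baseline was examined by the stimulated sham rats: Sham + VNS against Sham gave no call by edgeR, 1185 genes (8.01%) at an unadjusted p below 0.05 and 6 calls by DESeq2. Against Sham + VNS as the baseline, CLP + VNS had 4044 calls (27.3%), 13.9% higher and 13.4% lower.

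Markers of neighbouring tissues moved with the groups in part, and their share in other results was not tested. Mesothelial genes, which cover the lung surface, fell in 5 of 11 and rose in 2, with a median of -0.79 or -0.20 without Sham replicate 1. Their summed level was 955 to 2249 CPM in Sham and 1040.1 to 1342 CPM in CLP + VNS, highest in Sham replicate 1. Upk1b, a uroplakin of mesothelium, was at 137, 65.8, 70.7, 37.0 and 25.3 CPM in Sham and 16.6, 15.8, 14.1, 14.7 and 4.07 CPM in CLP + VNS, lower in every one of the latter. Against CLP, at unadjusted p by edgeR, 5 of 11 mesothelial genes were lower in CLP + VNS and 0 higher. Of 11 mast cell genes 4 were lower and 2 higher in that comparison. Mast cell genes fell in 5 of 11, in 3 without Sham replicate 1 and in 2 without CLP + VNS replicate 3; the protease Mcpt2 fell by 1.98, and its family has close copies.

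Adipose and heart genes moved with single libraries. The adipose list had 2 of 8 genes lower, and none without Sham replicate 1, where its median went from -2.04 to 0.53. Adipoq, the fat hormone adiponectin, was at 285, 9.71, 0, 0.141 and 0.0690 CPM in Sham and at most 1.29 CPM in CLP + VNS. Its log2 fold change was -7.38 ± 2.34 with Sham replicate 1 and -2.83 (adjusted p 0.318) without it. The cardiac list had 3 of 6 lower, and from 1 to 5 when 1 library was left out. Its mean log2 CPM was 4.02 in Sham replicate 1, 2.76 in Sham replicate 5, 2.43 in CLP + VNS replicate 3 and at most 1.51 in the other 7 libraries of the 2 groups. Myh6 had the same 3 libraries above 0, at 51.7, 21.8 and 6.45 CPM. With Sham replicate 1 and CLP + VNS replicate 3 both left out, CLP + VNS against Sham gave 4639 calls, 2209 higher and 2430 lower.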

How the data were processed

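Lung RNA of 20 rats was sequenced as poly(A)-selected, strand-marked libraries (150 bp paired-end reads), per the labels' protocols, and the build was mRatBN7.2, per the submitters' processing notes. The aligner, the counting tool, its strand setting and the annotation were not named there. The deposited gene table holds estimated counts (91.5% whole), FPKM and TPM values, and a scaled count signal, with group means of each made by the authors, per the file headers. Only the estimated counts, rounded to whole numbers, were used; the FPKM, TPM and signal columns that the authors deposited, and a table of transcripts, were not used here. Of 19060 gene IDs, 18800 were found in the RefSeq table of build GRCr8, which served for promoters and older symbols; 250 of 334 genes that could be named had a promoter in it.

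Counts were fitted with edgeR 4.0.16 (limma 3.58.1, R 4.3.3) over all 20 libraries as 4 group means, with TMM scaling, filterByExpr at a minimum count of 10, robust quasi-likelihood tests and Benjamini-Hochberg adjustment over 14794 genes (16 residual degrees of freedom). Log2 fold changes stand with their standard error and CPM means with their SD (n = 5). Exact permutation tests served 13 genes under the filter. Counting intervals and floors (3 counts, 0.0423 CPM in a Sham group mean) cover counting error only. No source says which rats shared a cage, surgeon or day, so p-values measure the spread between these libraries. All replicate pairs differed by more than counting noise (chi-square per degree of freedom 8.20 to 38.7). The procedure was tested on simulated counts.

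The comparison, the 56 gene lists (986 distinct genes tested) and the rules were chosen with earlier results of these data known. Named genes are the 12 highest and 12 lowest log2 fold changes among non-overlapping called genes of at least 1 CPM, up to 4 called members of each list with the smallest p, set members of each list, and the genes called against CLP; not all of them are printed. Alternatives were other scalings (DESeq2-type size factors, total counts), filters (none, a minimum count of 50), DESeq2 1.42.0, the 10 libraries alone, a replicate block and leaving out each library. Leaving out Sham replicate 1 and CLP + VNS replicate 3 together was added after seeing the data.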

Additional observations from a re-analysis of the deposited data

Results flagged for a closer look

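In 25 of 326 gene and group pairs 1 library lay far from the other 4 of its group, by Dixon's test on log2 CPM at the 95% level; chance alone flags about 1 pair in 20. Of these, 7 were Sham replicate 3 and 4 were Sham replicate 1. Sham replicate 3 was high for Atf6 at 150.4 CPM, Plaur at 14.1, Reg3b at 0.0726 (1 count), Socs3 at 156 and Sod2 at 134 CPM, and low for Cxcl12 at 74.8 and Sdc3 at 163 CPM. Each of these values lay on the side toward CLP + VNS. Sham replicate 1 was low for Aqp5 at 344 and Chrna7 at 0.212 CPM, and high for Irak3 at 24.8 and Sod3 at 106 CPM. In the other Sham libraries the values were Maob at 156 CPM in replicate 4, Sgk1 at 136 CPM in replicate 2, and in replicate 5 Slc6a2 at 56.3, Msr1 at 9.11 and Ptx3 at 2.07 CPM.

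Within CLP + VNS, 5 of the 9 were replicate 1, which was high for Nfkbiz at 116 and Cd14 at 72.0 CPM and low for Kdr at 184, Rgs5 at 2.98 and Adrb1 at 2.24 CPM. Replicate 11 was high for Hyal2 at 481 and Retnlg at 3.02 CPM and low for Upk1b at 4.07 CPM, and replicate 3 was low for Ramp3 at 29.7 CPM. Without CLP + VNS replicate 1, 277 genes differed from CLP in place of 4.

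For 4 genes the change from Sham differed between rats with and without stimulation after CLP, by edgeR's test of that difference. Sham cancels out of it, so that this is the same comparison of CLP + VNS with CLP as in the report and no further result: Tacc3 differed by -0.72, Heatr6 by -0.55, Nckap1l by -0.50 and Kmt5a by -0.35 on the log2 scale. All 4 had an adjusted p of 0.0421, and each lost its call in at least 8 of the 10 fits that left out 1 CLP + VNS or CLP library.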

How the results depend on the processing

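The alternatives followed 160 genes called in CLP + VNS against Sham. Of these, 155 kept their call in every run that tested them, 5 lost it under at least 1 (Tlr4, Adipoq, Col1a1, Chrm2 and Lcn2) and none changed direction. A gene without an adjusted p in a run, such as one removed by a stricter filter, was skipped there. The count of 5271 called genes lay between 4684 and 5398 when 1 library was left out and was 3104 (1616 higher, 1488 lower) with a replicate block. Fewer residual degrees of freedom remain under that block. Deviations of same-numbered Sham and CLP + VNS libraries correlated at 0.05, -0.07 and -0.05. So few pairs cannot decide whether replicate numbers pair the samples. For same-numbered CLP and CLP + VNS libraries the values were 0.026, 0.178 and 0.125 in replicates 1, 3 and 5. There CLP replicates 3 and 5 matched their own number best and replicate 1 did not. At a minimum count of 50, 373 genes in place of 569 fell at least 2-fold, with fewer genes tested. The 4 calls against CLP became 0 with total count scaling, 0 with the replicate block, 144 with DESeq2 and 0 to 277 when 1 library was left out, the highest without CLP + VNS replicate 1. Sham + VNS against Sham went from 0 calls to 6 with DESeq2, and from 0 to 2 when 1 library was left out (2 without Sham replicate 3). Nckap1l against Sham, not called, was at 0.04 and went to -0.0060 with total count scaling and from -0.012 to 0.093 when 1 library was left out. The difference of Mpo from Sham, -1.93 CPM, ran from -2.44 to 0.0481 CPM when 1 library was left out; the cause was not tested. Of 1007 list medians recomputed, 41 moved by more than the spread between libraries, and of 2014 list counts 188 moved by over 1.5 times. Total count scaling moved the median of all genes to -0.05. Depth limits genes near the 3-count floor, such as Il6 and Il10.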

Other observations

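Blood elements showed few changes. Of 9 platelet genes 1 rose and none fell; it was Gp6, the collagen receptor of platelets, at 5.85, 8.32, 9.22, 11.0 and 10.3 CPM in Sham and 19.3, 13.9, 12.7, 14.6 and 23.2 CPM in CLP + VNS (log2 fold change 0.91 ± 0.19). All CLP + VNS libraries exceeded all Sham libraries for it. Of 11 erythroid genes 1 rose and none fell.

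Lists for tissues that can be taken along with the lung were small. Of 3 skeletal muscle genes 1 fell, of 3 liver genes 1 rose, and of 4 thymus and lymph node genes 1 rose and 2 fell. Of 8 oesophagus and thyroid genes 2 fell. One of these was Krt4, a keratin of squamous epithelium, at 1.41, 2.52, 3.12, 1.20 and 2.00 CPM in Sham and 0.224, 0.287, 0.216, 0.356 and 0.281 CPM in CLP + VNS. It was at 0.714, 0.706, 0.724, 0.366 and 0.514 CPM in CLP, where the difference of CLP + VNS from CLP was -1.12 ± 0.32 (unadjusted p 0.00272, adjusted 0.187).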
